A study of Mus musculus with 20 samples.

Results

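Immediate early genes were examined in the hearts of mice fed an iron-deficient diet. The genes were a set of 10, chosen by name from the classical early response with earlier results of these data known. All 10 were found among the 23420 genes of the count table. They were Fos, Jun, Junb, Egr1, Atf3, Nr4a1, Ier2, Ier3, Btg2 and Dusp1. RNA was sequenced from the hearts of 20 male wild type C57BL/6 mice (C57BL/6J in the study's methods), 10 per diet, killed at 9 weeks of age. From 3 weeks of age, one group received a control diet for 6 weeks and the other an iron-deficient diet for 6 weeks, after which the study describes the latter as iron-deficient and anemic (IDA). The labels give the iron content of the deficient diet as below 2 ppm in one field and above 2 ppm in another. The study's methods give it as a range that starts at 2 ppm, and give a far higher iron content for the control diet. No transgene, knockout or drug was used in either group, and each library came from the heart of a single mouse that was washed in saline and frozen after dissection. The time from death to freezing is not given in the sources used here. Whole hearts hold cardiomyocytes, endothelial cells, fibroblasts and blood cells, so a change in the number of cells of a type and a change in RNA per cell cannot be told apart.

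Immediate early genes are transcribed within minutes of a stimulus, without the need for new protein synthesis, because the factors that switch them on, such as serum response factor with its Elk partners and CREB, are already present and are activated by kinases of the MAPK and cAMP pathways. Their transcripts and proteins are short-lived. Many encode transcription factors that carry the signal to later genes, and others encode proteins that shut the response down. In the heart they are known to rise with stretch, pressure load, adrenergic drive and ischemia.

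Promoter windows, the 250 bases before the RefSeq start site on GRCm38.p6, were matched by symbol for 8 of the 10 genes (Fos, Jun, Junb, Atf3, Ier3, Btg2, Nr4a1 and Dusp1), and motifs were searched on both strands. Of these windows, 6 held the core of the cAMP response element (CRE), TGACG, on either strand, namely those of Fos, Junb, Atf3, Btg2, Nr4a1 and Dusp1. Across 32841 promoter windows of the same length, 17.8% held this core. The whole palindrome TGACGTCA, which contains the core on both strands, was present in the windows of Btg2 and Dusp1 and in 1.55% of all windows. The sequences of Fos and Nr4a1, the genes with the widest spread between mice, of Atf3 and Dusp1, and of Ier3 as a window without the core are shown 5′ to 3′ on the coding strand. Capitals mark the CRE core or palindrome on either strand, the core reading CGTCA where it lies on the other strand.
Fos (chr12:85473640-85473889, plus strand): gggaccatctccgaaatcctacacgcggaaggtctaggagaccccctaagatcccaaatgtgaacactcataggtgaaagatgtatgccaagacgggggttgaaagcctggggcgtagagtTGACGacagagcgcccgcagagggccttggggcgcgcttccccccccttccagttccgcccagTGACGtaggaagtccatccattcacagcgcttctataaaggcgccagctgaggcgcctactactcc
Nr4a1 (chr15:101266596-101266845, plus strand): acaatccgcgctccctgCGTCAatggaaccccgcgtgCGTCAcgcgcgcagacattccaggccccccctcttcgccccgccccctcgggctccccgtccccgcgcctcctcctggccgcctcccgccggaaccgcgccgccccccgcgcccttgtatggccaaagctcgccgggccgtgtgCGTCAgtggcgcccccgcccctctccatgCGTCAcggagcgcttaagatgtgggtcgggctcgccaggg
Atf3 (chr1:191183334-191183583, minus strand): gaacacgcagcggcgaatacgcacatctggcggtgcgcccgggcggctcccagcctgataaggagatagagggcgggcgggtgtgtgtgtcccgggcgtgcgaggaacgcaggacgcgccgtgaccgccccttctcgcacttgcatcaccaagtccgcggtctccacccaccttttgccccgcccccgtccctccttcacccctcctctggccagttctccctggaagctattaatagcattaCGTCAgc
Dusp1 (chr17:26508473-26508722, minus strand): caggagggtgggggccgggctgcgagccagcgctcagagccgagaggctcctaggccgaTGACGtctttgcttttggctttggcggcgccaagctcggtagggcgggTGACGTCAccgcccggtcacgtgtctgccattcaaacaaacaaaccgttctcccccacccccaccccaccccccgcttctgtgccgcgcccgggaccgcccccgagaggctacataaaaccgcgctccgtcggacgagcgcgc
Ier3 (chr17:35821463-35821712, plus strand): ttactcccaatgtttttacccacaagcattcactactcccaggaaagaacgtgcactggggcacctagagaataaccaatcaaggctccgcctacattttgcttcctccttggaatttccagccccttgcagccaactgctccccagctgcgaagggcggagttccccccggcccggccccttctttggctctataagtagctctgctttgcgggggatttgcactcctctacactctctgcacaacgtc

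The Fos window held the core at bases -129 to -125 and -66 to -62, counted back from the start site, and a TATAAA box at -33 to -28. The Nr4a1 window held 4 copies of the core, all on the other strand, and the palindrome of Dusp1 lay at -143 to -136. The EGR site GCGNGGGCG was found in the windows of Btg2 and Nr4a1 and in 4.70% of all windows. The CCAAT box was found in those of Jun, Junb, Ier3 and Btg2 and in 33.9% of all windows. Neither the AP-1 site TGANTCA (6.75% of all windows) nor the CArG box bound by serum response factor (1.47%) occurred in the 8 windows, which says only that these letters were not in the stretch read. The window of Egr1 was not among the 8. These matches are descriptions of sequence and were not tested as binding sites.

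Total counts per mouse were 6797180 to 8960688 in the control group and 6682177 to 7833916 in the IDA group. Expression values are counts relative to library size (CPM), scaled between mice by the trimmed mean of M values (TMM). All 10 genes passed the expression filter of 1 CPM in at least 10 mice, which kept 13590 genes. Diet was associated with a trend on gene length across all genes, with slopes of log2 CPM on log2 exonic length of 0.02 to 0.20 in control mice and -0.25 to -0.03 in IDA mice, so the 10 genes and the lists of related genes were also examined after a correction for it. The column headers carry library numbers that fall into a lower set of 12 mice (control mice 6 to 10 and IDA mice 4 to 10) and an upper set of 8 mice (control mice 1 to 5 and IDA mice 1 to 3). Control mouse 4 and IDA mouse 7 stood apart in the summed CPM of 5 hepatocyte markers, at 66.2 and 134 CPM against at most 14.5 CPM in the other mice. Cardiomyocyte markers were abundant in every heart, at 3990 to 4839 CPM in control and 3534 to 4938 CPM in IDA mice over 8 genes.

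Of the 10 immediate early genes, 6 were higher in IDA hearts at an adjusted p below 0.05 (Fos, Junb, Atf3, Nr4a1, Ier2 and Btg2) and 0 were lower, by the edgeR quasi-likelihood test, Benjamini-Hochberg adjusted across all genes tested. The same test called 67.5% of all tested genes, 35.0% as higher and 32.5% as lower. At an unadjusted p below 0.05, 7 of the 10 genes were higher and 0 lower. The median log2 fold change was 0.44 for the 10 genes and 0.02 for all tested genes. By the stricter rule of the study, p below 0.01 by edgeR and also by DESeq2, 3 genes passed (Fos, Junb and Ier2), against 59.8% of all tested genes, and with the length correction 4 passed, against 47.0%. These shares come from all 20 mice. The study left out a mouse per group and reported far fewer genes by its rule, most of them lower. Without control mouse 4 and IDA mouse 7, the adjusted edgeR test here still called 66.2% of all tested genes. The reason for the difference from the study was not tested. DESeq2 alone, with adjusted p, called 5 as higher (34.5% of all tested genes), with Btg2 falling outside at an adjusted p of 0.0519. The calls for Atf3, Btg2 and Nr4a1 lay near the threshold, and all 3 were lost when control mouse 6, 7, 8 or 9, or IDA mouse 3, 4 or 5, was left out, which left 3 genes called. Over all 20 fits that left out a mouse, their log2 fold changes stayed positive, at 0.40 to 0.75 for Atf3, 0.17 to 0.28 for Btg2 and 0.66 to 1.02 for Nr4a1, with edgeR adjusted p-values of up to 0.117, 0.102 and 0.0771. Without control mouse 4 and IDA mouse 7 together, 5 genes were called as higher, against 33.9% of all tested genes. The 10 control and 10 IDA values were without overlap for 1 gene, Ier2, whereas 11.3% of all tested genes showed no overlap.

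**Figure D1:**
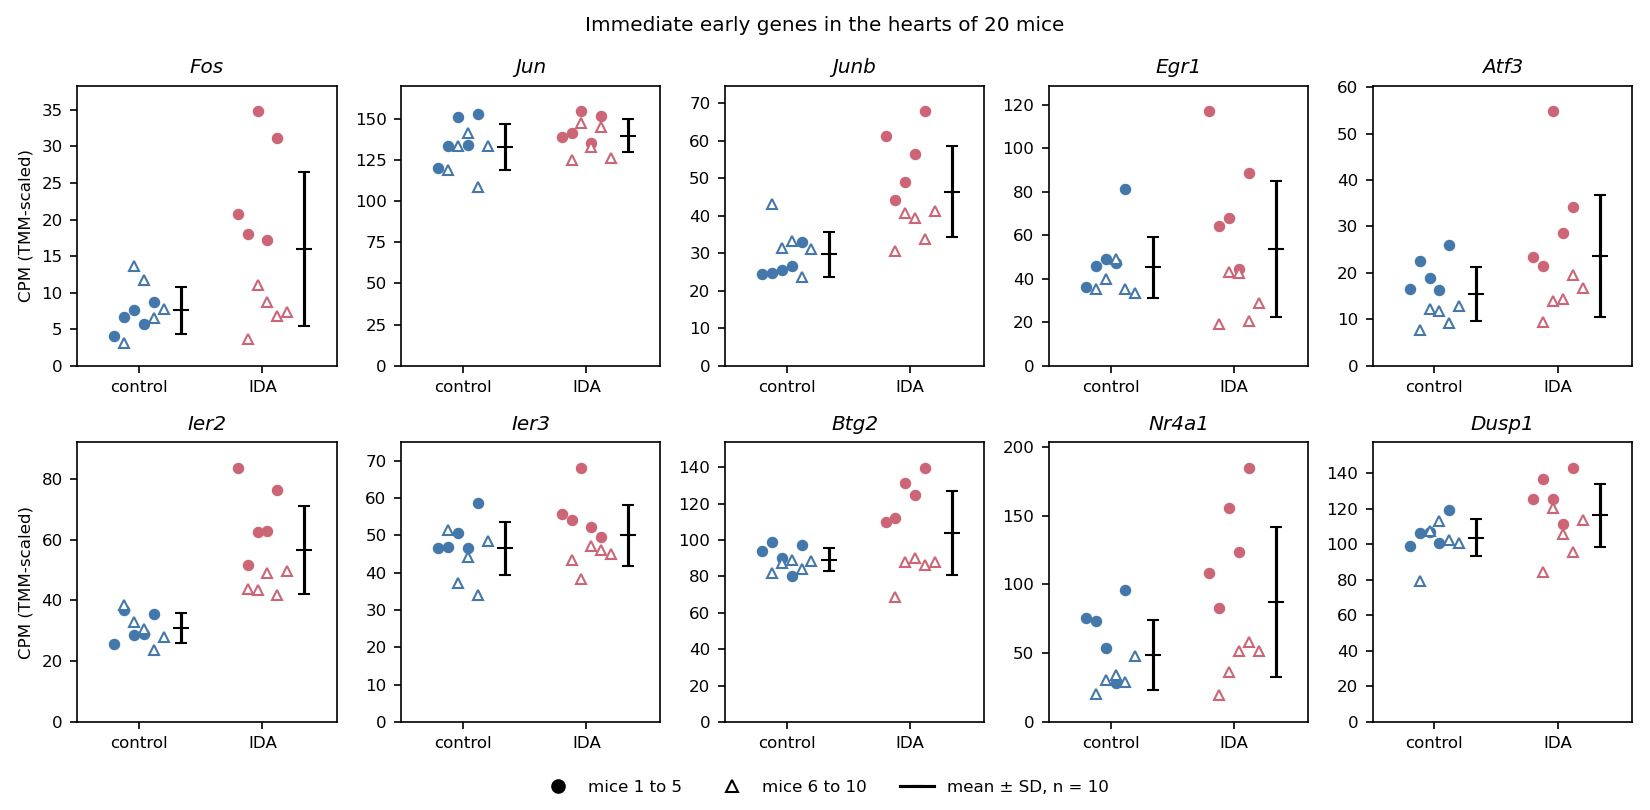
Expression of the 10 immediate early genes in each mouse, in TMM-scaled CPM on axes that start at 0, with filled circles for mice 1 to 5 and open triangles for mice 6 to 10 of each diet, and the mean ± SD of the 10 mice beside them. Ier2 is the gene in which all IDA values (41.7 to 83.8 CPM) lie above all control values (23.8 to 38.5 CPM), and in 8 panels the filled IDA circles all lie above the open IDA triangles.

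The AP-1 transcription factor is a dimer of Fos and Jun family proteins, and 3 of the genes encode its subunits. Fos (chr12:85473901-85477270, plus strand) encodes c-Fos, which binds DNA only with a Jun partner. Fos ranged from 3.10 to 13.6 CPM with a median of 7.19 in control hearts and from 3.70 to 34.8 CPM with a median of 14.2 in IDA hearts. The groups overlapped, with 5 IDA mice above the highest control mouse and IDA mouse 6 near the bottom of the control range. Mean Fos expression was 7.55 ± 3.22 CPM in control and 15.95 ± 10.5 CPM in IDA mice (SD, n = 10 each), a log2 fold change of 1.08 ± 0.33 (SE; edgeR quasi-likelihood adjusted p = 0.00618). These values rested on few counts, between 25 and 280 per mouse. The Fos call was lost within the lower set of library numbers alone (0.53, edgeR adjusted p = 0.326). It was also lost with erythroid markers as a covariate, where the standard error was larger (0.96 ± 0.58, edgeR adjusted p = 0.172).

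Junb (chr8:84976909-84978748, minus strand) encodes a Jun family protein that can dampen the activity of c-Jun. It ranged from 23.5 to 43.1 CPM with a median of 28.8 in control hearts and from 30.7 to 67.8 CPM with a median of 42.7 in IDA hearts. All 10 IDA mice lay above the control mean and 5 lay above the highest control mouse, control mouse 6, which itself stood apart from the other controls (next value 33.3 CPM). The means were 29.7 ± 6.02 CPM and 46.5 ± 12.1 CPM (SD, n = 10 each), with a log2 fold change of 0.65 ± 0.13 (edgeR adjusted p = 0.000193). With gene length and GC content corrected together, the Junb value was 0.27 and no longer passed (edgeR adjusted p = 0.0959). The call was also lost with the erythroid covariate (0.45 ± 0.23, edgeR adjusted p = 0.103) and within the lower set of library numbers (0.45, edgeR adjusted p = 0.0514). Jun (chr4:95049036-95052222, minus strand), which encodes c-Jun, ranged from 109 to 153 CPM with a median of 134 in control hearts and from 125 to 155 CPM with a median of 140.3 in IDA hearts. The Jun values overlapped almost entirely, and the log2 fold change of 0.08 ± 0.06 did not pass the test (edgeR adjusted p = 0.241).

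Egr1, Nr4a1 and Atf3 encode transcription factors of other families. Egr1 (chr18:34861207-34864956, plus strand), a zinc finger factor induced through serum response factor, ranged from 33.4 to 81.2 CPM with a median of 42.9 in control hearts and from 18.97 to 117 CPM with a median of 43.96 in IDA hearts. The IDA values reached further than the control values at both ends, with 2 mice above the highest control and IDA mouse 6 at the bottom. The log2 fold change of 0.25 ± 0.26 did not pass the test (edgeR adjusted p = 0.400), with means of 45.2 ± 14.1 CPM and 53.6 ± 31.2 CPM (SD, n = 10 each).

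Nr4a1 (chr15:101266846-101274794, plus strand) encodes the orphan nuclear receptor Nur77. It ranged from 19.95 to 95.97 CPM with a median of 40.7 in control hearts and from 19.3 to 185 CPM with a median of 70.7 in IDA hearts, the widest relative range of the 10 genes in control mice. The lowest IDA mouse lay below the lowest control mouse, and 4 IDA mice lay above the highest control mouse. The log2 fold change was 0.85 ± 0.34 (edgeR adjusted p = 0.0296), from 48.9 ± 25.3 CPM to 87.2 ± 54.3 CPM (SD, n = 10 each). Atf3 (chr1:191170297-191183333, minus strand), a stress-induced member of the ATF/CREB family that often acts as a repressor, ranged from 7.68 to 26.02 CPM with a median of 14.6 in control hearts and from 9.48 to 54.8 CPM with a median of 20.5 in IDA hearts. Its upper end was set by IDA mouse 3, and 3 IDA mice exceeded the highest control. The log2 fold change of Atf3 was 0.64 ± 0.26 (edgeR adjusted p = 0.0353), and after the gene length correction it no longer passed (0.51, edgeR adjusted p = 0.0972).

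The other 4 genes encode regulators and effectors that are not themselves classical DNA-binding factors. Ier2 (chr8:84661331-84662852, minus strand), which encodes a small nuclear protein, ranged from 23.8 to 38.5 CPM with a median of 29.7 in control hearts and from 41.7 to 83.8 CPM with a median of 50.8 in IDA hearts. Every IDA mouse was above every control mouse. Mean expression was 30.97 ± 4.90 CPM in control and 56.5 ± 14.5 CPM in IDA mice (SD, n = 10 each), and the log2 fold change of 0.87 ± 0.12 had the lowest adjusted p of the 10 genes (edgeR adjusted p = 2.55e-06).

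Btg2 (chr1:134074865-134079155, minus strand) encodes an antiproliferative protein that binds the CCR4-NOT deadenylase complex. It lay in a narrow band from 80.2 to 99.1 CPM with a median of 88.9 in control hearts, and ranged from 68.8 to 139.8 CPM with a median of 100.1 in IDA hearts. The IDA values lay on both sides of the control band, with 5 mice above its top and IDA mouse 6 below its bottom, and the log2 fold change was 0.23 ± 0.10 (edgeR adjusted p = 0.0446). Dusp1 (chr17:26505591-26508472, minus strand) encodes a phosphatase that inactivates MAP kinases. It ranged from 79.6 to 119 CPM with a median of 104 in control hearts and from 84.5 to 143 CPM with a median of 117 in IDA hearts. The means of Dusp1 were 104 ± 10.4 CPM and 116 ± 17.95 CPM (SD, n = 10 each), and the log2 fold change of 0.17 ± 0.08 did not pass the adjusted threshold (edgeR adjusted p = 0.0696). Ier3 (chr17:35821713-35822911, plus strand), which encodes a regulator of cell survival, ranged from 34.01 to 58.7 CPM with a median of 46.7 in control hearts and from 38.3 to 68.1 CPM with a median of 48.4 in IDA hearts. Its log2 fold change of 0.11 ± 0.09 did not pass the test (edgeR adjusted p = 0.321). The exons of none of the 10 genes overlapped those of another gene in the table.

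The genes differed in their level within control hearts when CPM was divided by exonic length. Dusp1 was the highest, at 53.3 ± 5.38 CPM per kb (mean ± SD, n = 10), followed by Ier3 at 42.6 ± 6.43 and Jun at 41.7 ± 4.38, which lay within each other's spread. Btg2 followed at 28.9 ± 2.04 CPM per kb. Ier2 (20.3 ± 3.22), Nr4a1 (19.7 ± 10.2), Junb (16.1 ± 3.27) and Egr1 (14.7 ± 4.58) formed a middle group in which the spreads of neighbours overlapped. Atf3 and Fos were the lowest, at 7.79 ± 2.95 and 3.61 ± 1.54 CPM per kb. In IDA hearts Ier2 reached 37.1 ± 9.52 CPM per kb and Nr4a1 35.2 ± 21.9, both on a level with Btg2 at 33.7 ± 7.499, while Dusp1 remained first at 59.8 ± 9.24 and Fos last at 7.62 ± 5.03.

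After the correction for gene length, 6 of the 10 genes again passed the adjusted threshold (edgeR), all 6 of them higher in IDA hearts, against 55.0% of all tested genes (31.5% higher and 23.5% lower). The median log2 fold change was then 0.41 for the 10 genes and 0.04 for all. Fos (0.98), Junb (0.50), Ier2 (0.67), Btg2 (0.29) and Nr4a1 (0.81) passed as before. Jun, with an exonic length of 3187 bases, passed in place of Atf3, with a corrected log2 fold change of 0.15 (edgeR adjusted p = 0.0213). Ier3, the shortest of the 10 at 1090 bases, changed sign to -0.17 without passing (edgeR adjusted p = 0.120). The corrected values of Egr1 (0.31) and Dusp1 (0.04) did not pass (edgeR adjusted p = 0.319 and 0.716). The direction of Jun and Dusp1 also depended on the correction, as both turned negative when GC content was added to it.

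**Figure D2:**
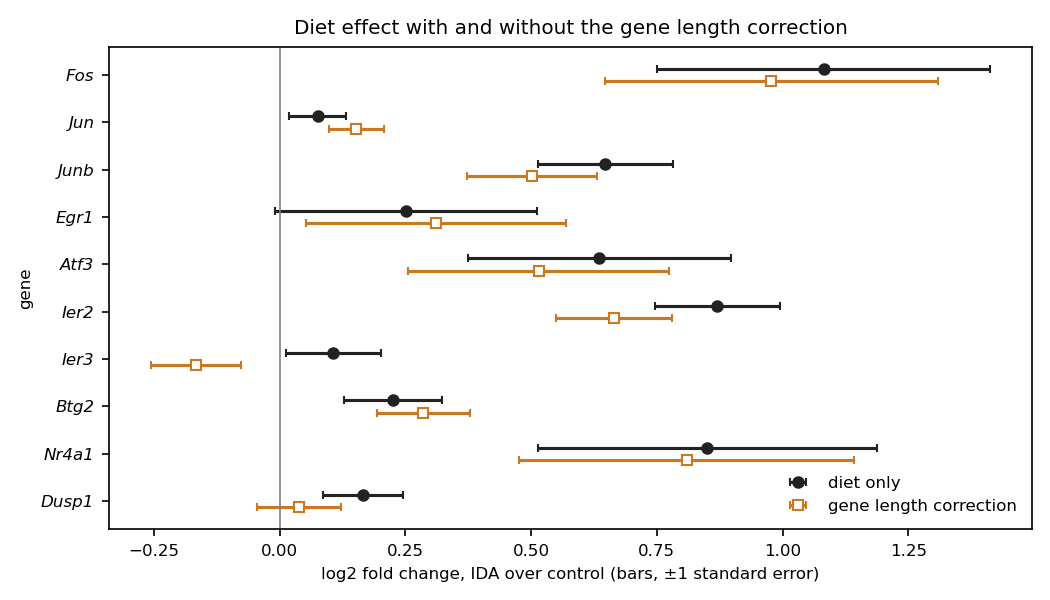
Log2 fold change, IDA over control, of each immediate early gene on the x axis from the edgeR fit with diet only (filled circles) and with the gene length correction (open squares), with bars of ±1 SE. Fos, Ier2, Nr4a1, Junb and Atf3 keep log2 fold changes of at least 0.50 in both fits, while Ier3 moves from 0.11 to -0.17.

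Within the IDA group the genes divided the mice by their number. In 8 of the 10 genes, all but Jun and Dusp1, every one of IDA mice 1 to 5 lay above every one of IDA mice 6 to 10, a pattern found in 1.61% of all tested genes (219 of 13590). Counted in either direction, these mice were without overlap for 4.83% of all tested genes (657). The labels give no difference between these mice, the pattern was noticed after the values were seen, and it was not tested. Fos was 17.2 to 34.8 CPM in mice 1 to 5 and 3.70 to 11.1 CPM in mice 6 to 10. The corresponding ranges of Nr4a1 were 83.01 to 185 and 19.3 to 58.3 CPM, and those of Atf3 21.4 to 54.8 and 9.48 to 19.5 CPM. In IDA mice 6 to 10, all values of Fos and Atf3 lay within the control range, as did those of Nr4a1 except in mouse 6. Their means of Fos, Nr4a1 and Atf3 were 7.52, 43.5 and 14.8 CPM, against 7.55, 48.9 and 15.4 CPM over all control mice. The mean of Btg2 was 84.4 against 89.1 CPM. The higher IDA means of these 4 genes therefore came from IDA mice 1 to 5.

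Egr1 showed the smallest gap of the transcription factors, at 44.6 to 117 against 18.97 to 43.3 CPM, and in Btg2 the ranges were 110.0 to 139.8 and 68.8 to 90.2 CPM. Junb (44.2 to 67.8 against 30.7 to 41.3 CPM) and Ier3 (49.6 to 68.1 against 38.3 to 47.2 CPM) were divided in the same way. Ier2 was 51.8 to 83.8 CPM in mice 1 to 5 and 41.7 to 49.7 CPM in mice 6 to 10, both above the highest control mouse at 38.5 CPM. In the control group, mice 1 to 5 and 6 to 10 were without overlap for 1 of the 10 genes, Atf3 (16.4 to 26.02 against 7.68 to 12.9 CPM). In either direction this held for 2.88% of all tested genes in control mice and 4.83% in IDA mice.

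The division of the IDA mice did not follow the sets of library numbers. IDA mice 1 to 3 carried numbers of the upper set, and IDA mice 4 and 5 carried numbers of the lower set, as did IDA mice 6 to 10. The numbers of IDA mice 4 and 5 stood at the start of the lower set and those of IDA mice 6 to 10 at its end, with control mice 6 to 10 between them. Fos was 18.02 to 34.8 CPM in IDA mice 1 to 3, 17.2 and 31.1 CPM in IDA mice 4 and 5, and 3.70 to 11.1 CPM in IDA mice 6 to 10. Nr4a1 was 83.01 to 156 CPM in the first of these, 123 and 185 CPM in mice 4 and 5, and 19.3 to 58.3 CPM in the last. Within the upper set alone (5 control and 3 IDA mice), 7 of the 10 genes were higher at an adjusted p below 0.05 by edgeR, against 19.4% of all tested genes. Within the lower set alone (5 control and 7 IDA mice) 3 were higher, against 30.2%. A test of whether the diet effect differed between the number sets passed for 0 of the 10 genes after adjustment (edgeR, lowest adjusted p = 0.780 for Fos, whose unadjusted p of 0.0422 was the only one below 0.05), and for 28 of all 13590 genes. The upper set held only IDA mice 1 to 3 and the lower set IDA mice 4 to 10. The counts by set and this test therefore carry the division of the IDA mice as well.

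**Figure D3:**
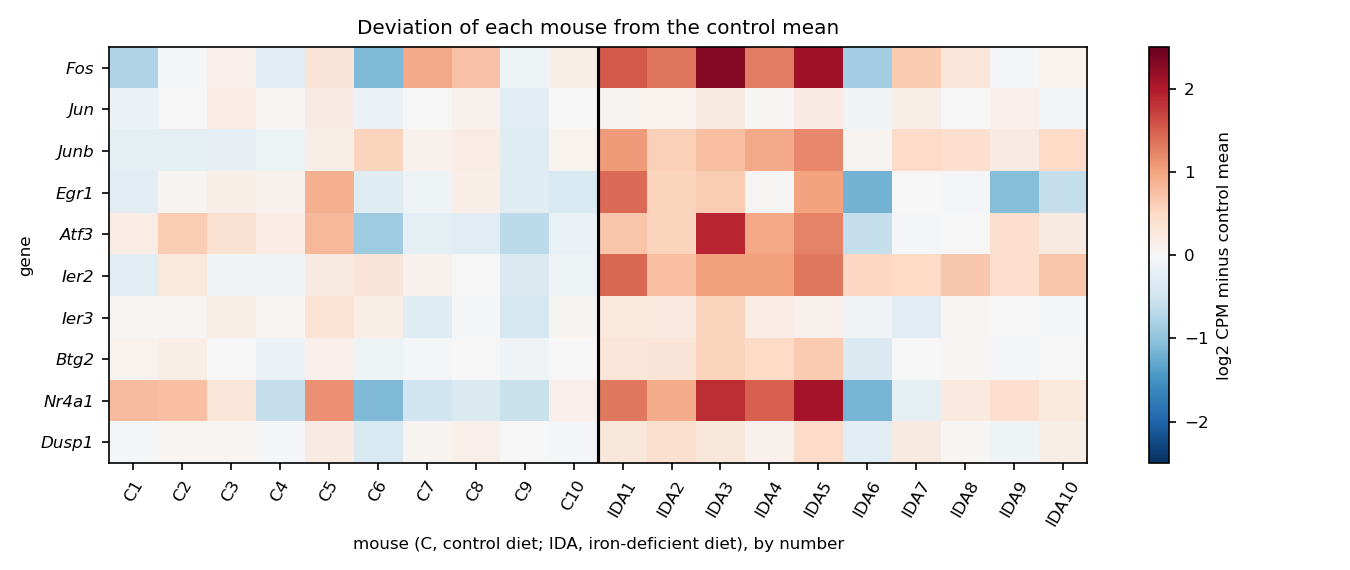
Heat map of log2 CPM minus the control mean for each gene (rows) and mouse (columns, control mice 1 to 10 and then IDA mice 1 to 10), red above and blue below the control mean. IDA mice 1 to 5 are red in nearly every row, with Fos at 17.2 to 34.8 CPM, whereas IDA mouse 6 lies below the control mean for every gene but Junb and Ier2.

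Neutrophil markers moved along with this division. The summed CPM of 6 neutrophil markers was 18.9 to 108 in IDA mice 1 to 5, 7.05 to 14.9 in IDA mice 6 to 10 and 4.61 to 19.8 in control mice, with none of the 6 at 0 throughout. For 6 platelet markers the sums were 113 to 377, 82.4 to 173 and 34.7 to 107 CPM, and for 8 leukocyte markers 276 to 359, 250.2 to 284 and 272 to 315 CPM. Erythroid markers, of which 3 of 10 were at 0 in all mice, had 5 of 6 tested genes higher in IDA hearts (edgeR adjusted p below 0.05) but did not divide the IDA mice (309 to 619.8 and 334 to 1004 CPM, against 203 to 310.0 CPM in control mice). Endothelial markers overlapped, at 1662 to 2183 and 1789 to 1952 CPM in the IDA mice and 1817 to 1996 CPM in control mice. Cardiomyocyte markers were below every control mouse and every one of IDA mice 6 to 10 in IDA mice 1, 3, 4 and 5, with sums of 3534 to 4403 CPM in IDA mice 1 to 5, the highest being mouse 2, and 4211 to 4938 CPM in IDA mice 6 to 10. In further fits, the covariate was the mean log2 CPM of the tested markers of a list, not their sum. The number of immediate early genes called as higher by edgeR was then 3 for leukocyte, 3 for endothelial and 1 for erythroid markers, the last being Ier2. The shares of all tested genes called as higher were 35.7%, 35.9% and 26.0%. The erythroid sums barely overlapped between the diets, so the fit with these markers can hardly separate them from diet. The part of these cells in the result was not tested further.

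The genes varied widely between mice of the same diet. The median SD of log2 CPM between control mice was 0.25 for the 10 genes and 0.14 for all tested genes, and between IDA mice 0.36 and 0.18. Nr4a1 had an SD of 0.74 in control and 1.01 in IDA mice, at percentiles 99.4 and 99.5 of all tested genes. Fos (0.62 and 1.01), Atf3 (0.55 and 0.71) and Egr1 (0.38 and 0.86) were also above percentile 90 in both diets. Btg2 was among the steadier genes in control hearts (SD 0.10, percentile 26.6) but not in IDA hearts (SD 0.32, percentile 79.4). Jun was steady in both, with SDs of 0.15 and 0.10.

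**Figure D4:**
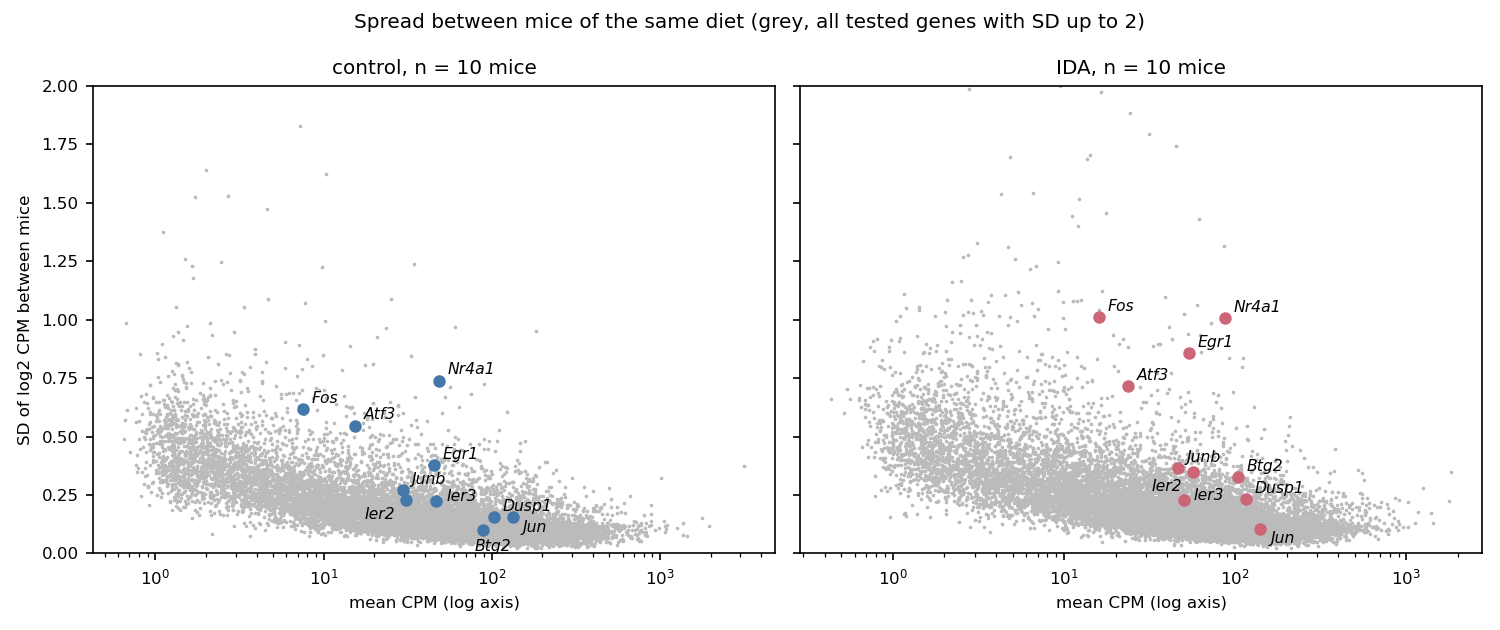
SD of log2 CPM between the 10 mice of a diet (y axis) against mean CPM (x axis, log scale), with control mice on the left and IDA mice on the right, grey points for all tested genes with an SD up to 2 and coloured points for the immediate early genes. Nr4a1, Fos, Atf3 and Egr1 sit above most genes of their level in both diets, and Jun, at an SD of 0.15 and 0.10, does not.

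Among control mice, in which no such division was seen for 9 of the 10 genes, the genes were compared in pairs. Pearson's r of log2 CPM was positive in 37 of the 45 pairs, with a median of 0.42 (0.29 when the 2 outermost mice on the first gene of each pair were left out), and all pairs share their libraries and scaling. When log2 CPM was centred within each set of library numbers (5 control mice each), a step added after the data were examined, the median was 0.40 and 37 pairs were again positive. Btg2 and Nr4a1 had the highest correlation, with r = 0.92 (n = 10, permutation p = 0.0001, adjusted over the 45 pairs 0.0045) and Spearman's rho = 0.94 (permutation p = 0.00015, adjusted 0.00675), and r was 0.97 without the 2 outermost mice. Centred within the number sets it was 0.92 (exact permutation within sets, p = 0.0016, adjusted 0.0359). Atf3 and Nr4a1 followed, with r = 0.86 (n = 10, permutation p = 0.00143, adjusted 0.0322) and rho = 0.83 (permutation p = 0.00459, adjusted 0.0529), and r was 0.71 without the 2 outermost mice. Atf3 differed without overlap between the number sets of the control mice, and centred within sets the pair did not pass (r = 0.74, exact permutation p = 0.0178, adjusted 0.105). The other 43 pairs had adjusted p-values of r above 0.05 before centring, and after it Fos and Dusp1 passed as well (r = 0.92, exact permutation p = 0.000903, adjusted 0.0359). No correlation over the IDA mice is given, since they fell into separate sets.

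Other early response genes were read from lists compiled from general knowledge, with earlier results of these data known. Of 26 tested early response transcription factors outside the 10 genes, 12 were higher and 1 was lower in IDA hearts (edgeR adjusted p below 0.05), with a median log2 fold change of 0.28 against 0.02 for all genes, of which 35.0% were higher and 32.5% lower. After the length correction 8 of the 26 were higher and 0 lower, against 31.5% and 23.5% of all tested genes. The share of higher genes was then near that of all tested genes, and the median log2 fold change of the list was 0.15. The largest increases were in Fosb, a Fos family subunit of AP-1 (1.07 ± 0.39, edgeR adjusted p = 0.0183), Cebpd, a factor of the acute phase response (0.78 ± 0.17, edgeR adjusted p = 0.000419), and Nfil3, a bZIP repressor (0.61 ± 0.13, edgeR adjusted p = 0.000189). Fosb had a lowest, median and highest value of 0.991, 1.63 and 2.70 CPM in control and 0.889, 2.11 and 12.1 CPM in IDA hearts, the highest being IDA mouse 5, so its groups overlapped. Nfil3 was higher in all 10 IDA mice than the control mean (58.6 ± 15.1 against 89.5 ± 14.8 CPM, SD, n = 10 each). Klf6, a zinc finger factor, was the gene that was lower (-0.33 ± 0.11, edgeR adjusted p = 0.0126), and it did not pass after the length correction (-0.13, edgeR adjusted p = 0.284).

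Among 41 tested feedback and effector genes of the early response, 15 were higher and 4 lower (edgeR), and 14 and 4 after the length correction, with a median log2 fold change of 0.21 in both fits. The share of higher genes was near that of all tested genes, 35.0% without and 31.5% with the correction. Arc, which encodes a cytoskeletal protein best known from neurons, rose by 1.26 ± 0.37 on the log2 scale (edgeR adjusted p = 0.00421), but its highest value of 41.9 CPM in IDA mouse 5 was far above the next, at 16.2 CPM. The MAP kinase phosphatases Dusp2 (0.81 ± 0.33, edgeR adjusted p = 0.0339) and Dusp5 (0.60 ± 0.16, edgeR adjusted p = 0.00191) were also higher, and neither passed after the length correction. Of the lower genes, Zfp36l2 and Zfp36l1 encode proteins that promote decay of AU-rich transcripts, and their log2 fold changes were -0.48 ± 0.09 and -0.44 ± 0.09 (edgeR adjusted p = 8.22e-05 and 0.000155). Pim1, a serine/threonine kinase, fell by 0.25 ± 0.09 (edgeR adjusted p = 0.0215). These 3 genes were lower after the length correction too. The division of the IDA mice seen in the 10 genes appeared in 6 of the 41 (Dusp5, Dusp6, Gadd45g, Cyr61, Tnfaip3 and Cxcl1) and in 1 of the 26 transcription factors (Egr2), against the 1.61% of all tested genes. It also appeared in 3 of 38 upstream kinases and nuclear factors (Nras, Elk3 and Crem), 2 of 7 tested leukocyte markers (Ptprc and Cd79a) and 2 of 3 tested neutrophil markers (S100a9 and Csf3r), and in 0 genes of the other lists.

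The kinases and nuclear factors upstream of the immediate early genes moved mostly the other way in the uncorrected fit. Of 38 tested, 8 were higher and 21 lower (edgeR), with a median log2 fold change of -0.18, but after the length correction 16 were higher and 14 lower with a median of 0.05. The shares of all tested genes were 35.0% and 32.5% without and 31.5% and 23.5% with the correction. Elk4, a partner of serum response factor, was lower in every IDA mouse than in any control mouse (32.3 ± 9.73 against 11.2 ± 3.26 CPM, SD, n = 10 each; log2 fold change -1.53 ± 0.18, edgeR adjusted p = 5.01e-07). The histone acetyltransferases that CREB recruits, Crebbp (-1.28 ± 0.17, edgeR adjusted p = 1.56e-06) and Ep300 (-1.002 ± 0.13, edgeR adjusted p = 8.31e-07), were lower as well, and these 3 remained lower after the length correction, at -1.39, -0.79 and -0.45. Members of the Ras to MAPK chain had the largest increases, with Rps6ka1 at 0.45 ± 0.09, Hras1 at 0.42 ± 0.05 and Map2k2 at 0.41 ± 0.05 (edgeR adjusted p = 9.20e-05, 5.75e-07 and 3.87e-07). Hras1 and Map2k2 were without overlap between the diets.

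Of 15 tested partners and repressors of the 10 proteins, 4 were higher and 5 lower (edgeR), with or without the length correction, against 35.0% and 32.5% of all tested genes without it, and the median changed sign from -0.03 to 0.07. The dimer partners Atf7 (-1.26 ± 0.15) and Atf2 (-0.53 ± 0.07) and Cnot1, the scaffold of the CCR4-NOT complex (-0.80 ± 0.11), were lower (edgeR adjusted p = 3.99e-07, 2.14e-06 and 1.13e-06). The retinoid X receptors Rxrb (0.39 ± 0.05) and Rxrg (0.26 ± 0.05), partners of Nr4a1, and the AP-1 repressor Jdp2 (0.31 ± 0.10) were higher (edgeR adjusted p = 1.84e-06, 8.55e-05 and 0.00877), and Jdp2 did not pass after the length correction.

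Of 13 tested regulators of mRNA decay, 0 were higher (1 at an unadjusted p below 0.05) and 9 lower (edgeR, against 35.0% and 32.5% of all genes), but after the length correction 5 were higher and 4 lower and the median moved from -0.28 to 0.06. The deadenylases Cnot6 (-1.44 ± 0.15, edgeR adjusted p = 2.15e-07) and Cnot6l (-1.03 ± 0.14, edgeR adjusted p = 1.51e-06) stayed lower after the correction, at -1.47 and -0.95. Rc3h1, which encodes Roquin (-0.71 ± 0.10, edgeR adjusted p = 3.73e-06), did not (-0.06, edgeR adjusted p = 0.390). Of 17 heat shock and tissue handling genes, 6 were higher and 2 lower (the higher share being near the 35.0% of all tested genes), and after the length correction 2 were higher and 3 lower, with median log2 fold changes of 0.10 and 0.02. The chaperone genes Hspb1 (0.27 ± 0.06) and Hspe1 (0.22 ± 0.06) were higher without the correction (edgeR adjusted p = 0.000400 and 0.00142) and had negative values of -0.04 and -0.11 with it. Hsf2, a heat shock factor, fell by 0.28 ± 0.06 and the co-chaperone gene Dnajb4 fell by 0.24 ± 0.04 (edgeR adjusted p = 0.000394 and 4.88e-05).

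**Figure D5:**
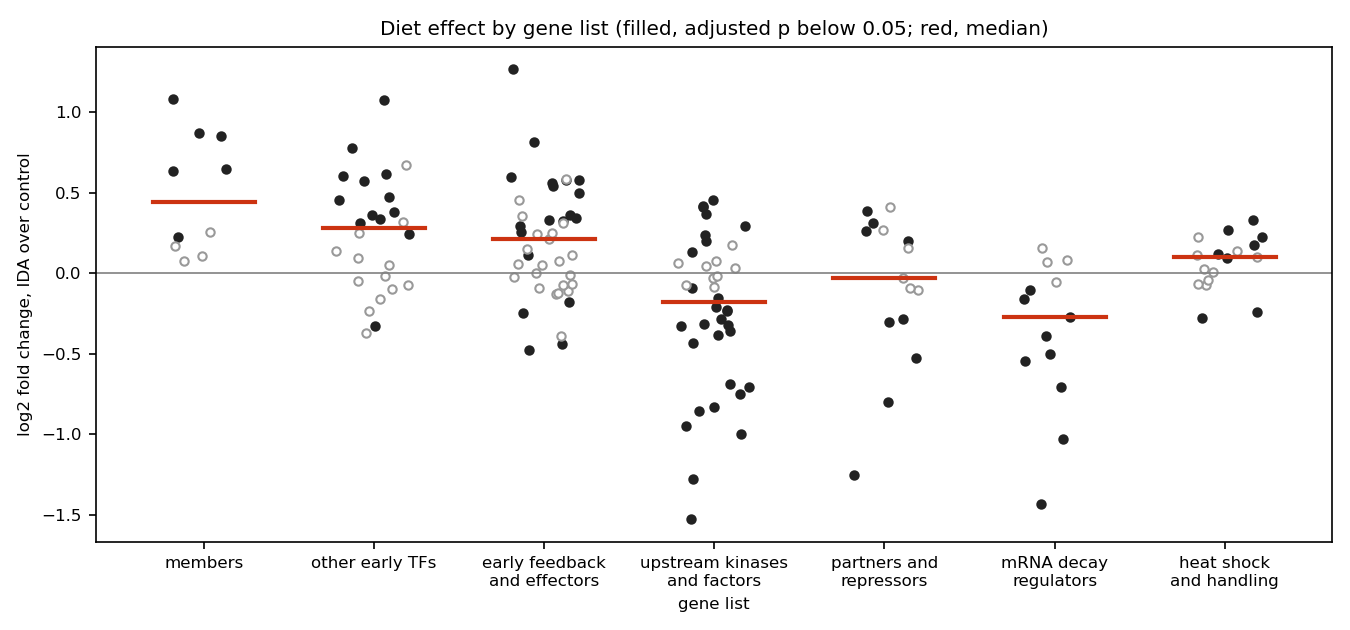
Log2 fold change, IDA over control, without the length correction (y axis) for the 10 immediate early genes and 6 lists of related genes (x axis), each point a gene, filled where the edgeR adjusted p is below 0.05, with a red line at the median. The medians are 0.44 for the 10 genes, 0.28 for other early transcription factors and 0.21 for feedback and effector genes, and with the length correction 0.41, 0.15 and 0.21. The negative medians of the upstream, partner and decay lists (-0.18, -0.03 and -0.28) turn positive with the length correction.

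The genes whose pattern was most like the 10 were sought by correlating log2 CPM within each diet (10 mice each) with the mean of the standardized values of the 10 genes, the IDA mice being divided as described. Genes were ranked by the mean r over both diets, and since r over the IDA mice follows their division, only r over the 10 control mice is given, as a description with no test. Among the highest were Spry4 (0.84), Nup54 (0.90), P2ry2 (0.85), Siah2 (0.70), 2310057M21Rik (0.83), Tubb2b (0.83) and Nol10 (0.82). Spry4 encodes an inhibitor of receptor tyrosine kinase signalling. Of the 7 genes, Tubb2b, a tubulin gene, was higher in IDA hearts (0.51 ± 0.14, edgeR adjusted p = 0.00260) and P2ry2, a nucleotide receptor gene, was lower (-0.16 ± 0.06, edgeR adjusted p = 0.0129), and the other 5 did not pass. P2ry2 did not pass after the length correction (-0.11, edgeR adjusted p = 0.0731).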

How the data were processed

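RNA-seq counts came from hearts of 20 mice. The authors isolated poly-A mRNA, sequenced paired-end reads, mapped these with STAR (mm10) and, once samtools had removed PCR duplicates, deposited raw read-pair counts per gene from featureCounts (version 1.4.5-p1), ignoring strand. Duplicate removal can compress the counts of abundant genes. Mice were grouped by their labels, and each is a separate animal. The study left out a mouse per group because of sample contamination, without naming it. All 20 were kept, so the main fit includes the mice that the study left out. Of the gene names, 27 had become dates and 2 were duplicated, and these were kept as given.

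The filter required 1 CPM or more in 10 or more mice (13590 genes kept, 9830 excluded). Genes were tested in R 4.3.3 with TMM factors and the quasi-likelihood test of edgeR (version 4.0.16). DESeq2 (version 1.42.0) and limma (version 3.58.1) served as alternatives. Adjusted p-values are Benjamini-Hochberg values over all tested genes. Log2 CPM used a prior count of 2. The length correction removed a loess curve (span 0.5, degree 1) on log2 exonic length from each mouse. Correlations used 100000 permutations, two-sided, and were limited to control mice, although both diets had been planned. The edgeR fit was tested on simulated counts that had no length trend and no division within a diet. Promoters came from RefSeq GRCm38.p6.

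The members and lists were chosen with earlier results of these data known. All 10 members are named, and from each related list up to 3 higher and 3 lower genes with the largest absolute log2 fold change past the threshold, and the 8 genes most like the members. A few genes that this rule names are not reported here.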

Additional observations from a re-analysis of the deposited data

Results flagged for a closer look

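Single mice stood apart from the other 9 of their diet in 8 of 96 tested sets of values, by the gap to the nearest mouse as a share of the range, with a critical value of 0.466. Chance alone gives about 1 in 20.

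Among the immediate early genes, Junb was highest in control mouse 6 at 43.1 CPM (next 33.3 CPM), and the same mouse was lowest for Dusp1 at 79.6 CPM (next 99.3 CPM). Egr1 was highest in control mouse 5 at 81.2 CPM (next 48.9 CPM). Among the related genes, IDA mouse 5 was highest for Arc at 41.9 CPM (next 16.2 CPM), for Fosb at 12.1 CPM (next 5.47 CPM) and for Dusp2 at 3.87 CPM (next 1.87 CPM). IDA mouse 7 was highest for Cnot1 at 216 CPM (next 164 CPM), and IDA mouse 3 was highest for Siah2 at 41.3 CPM (next 31.1 CPM).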

How the results depend on the processing

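Of the 10 genes, the 6 called in the diet comparison became 3 with limma-voom, 1 with the erythroid marker covariate, 3 with the leukocyte covariate, 3 with the endothelial covariate and 3 with the lower set of library numbers only, the last chosen after the data were examined, as were the other analyses by library number and without control mouse 4 and IDA mouse 7 (5 called). Leaving out each mouse in turn gave 3 to 7. The causes were not tested. Ier2 passed in all 20 fits that left out a mouse and all 22 others, with log2 fold changes of 0.48 to 1.07.

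Some log2 fold changes turned negative. Ier3 became -0.17 with the length correction, -0.17 with it and the replicate block, -0.23 with length and GC content (edgeR adjusted p = 0.0388, a range of 0.0388 to 0.999 over the alternatives), -0.00016 with GC content alone and -0.12 with the number set and length. Jun became -0.0183 with length and GC content, -0.0633 with GC content and -0.0557 with erythroid markers. Dusp1 became -0.0411 with length and GC content, and Egr1 -0.0719 with erythroid markers. With length and GC content, 3 genes were higher and 1, Ier3, was lower.

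Replicate numbers were not taken as pairs of mice, and the values do not settle whether they are. The deviations of same-numbered mice correlated at -0.28 to 0.26 (3 of 10 above 0.1), and 3 of 10 control mice correlated best with their own number. A replicate block gave 7 calls, adding Dusp1. With the length correction, the block lowered the SE of Nr4a1 from 0.33 to 0.17 and that of Atf3 from 0.26 to 0.13, while that of Junb stayed at 0.13. Same-numbered mice 1 to 3 and 6 to 10 share a set of library numbers, which a block absorbs as well. Fos, with 25 to 280 counts per mouse, had the shallowest data of the 10.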
